A study of Mus musculus with 24 samples.

Results

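Mitochondrial ribosomal protein genes are the nuclear genes for the protein parts of the ribosome that works inside mitochondria. They were chosen by symbol, as every gene in the expression table whose name starts with Mrpl or Mrps followed by a digit, which gave 70 of the 10721 genes in the table. The submitters name it a table of significant genes without stating the rule, so shares of all genes and adjusted p-values below are over that selected set. By their names and known places in the particle, 25 encode proteins of the small subunit and 44 encode proteins of the large subunit. The remaining gene, Mrps36, carries the name of a ribosomal protein, but its product is now placed in the 2-oxoglutarate dehydrogenase complex. Mrps18a is named as a small subunit gene, but its product sits in the large subunit and was counted there.

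As background, the mitochondrial ribosome translates the few messenger RNAs of the mitochondrial genome, which encode core subunits of the respiratory chain complexes and of ATP synthase. Its ribosomal RNAs are made in the mitochondrion, while its proteins are made in the cytosol and imported. Some of these proteins descend from bacterial ribosomal proteins, and others have no counterpart in bacteria. Osteoclasts, the cells that resorb bone, are rich in mitochondria.

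The samples were bone-marrow cultures of female mice aged 10 to 12 weeks, either STING-deficient (KO) or wild type (WT). STING, the adaptor of cytosolic DNA sensing, is encoded by Tmem173, and the labels do not name the allele or the strain. All marrow was first expanded for 72 hours with 40 ng/mL mCSF, which yields macrophage-lineage osteoclast precursors, and these cells before RANKL are day 0. The other cells received 10 ng/mL RANKL, the cytokine that drives osteoclast formation, with 20 ng/mL mCSF for 2, 3 or 4 days, and 3 wells were pooled per sample. RANKL, the mCSF dose and time in culture thus changed together from day 0, and their parts cannot be told apart. Each group held 3 mice, KO mice 481, 528 and 532 and WT mice 480, 529 and 531, and every mouse gave a sample at each of days 0, 2, 3 and 4, for 24 samples in all. Values below are listed in that order of mice.

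Levels are FPKM, which scale a gene's reads by transcript length and by the library's mapped fragments, as deposited; read depth per sample was not used here. Differences are on the log2(FPKM + 1) scale, and calls are at a limma adjusted p below 0.05 over all 10081 genes tested, which include all 70 Mrp genes. Tmem173 measured 5.08, 4.57 and 4.89 FPKM in KO day 0 samples, against 28.7, 25.4 and 21.3 FPKM in WT day 0 samples (log2 difference -2.15, adjusted p = 8.26e-06). On the RANKL days it was below the WT day 0 level in both genotypes, with 2.65 to 3.79 FPKM in the 9 KO samples, against 3.38 to 7.35 FPKM in the 9 WT samples, and the log2 difference at days 2, 3 and 4 was -0.68, -0.25 and -0.51 (adjusted p = 0.0232, 0.934 and 0.224). Summed FPKM per sample ran from 459180 to 537906 on the RANKL days, against 573661 to 734974 at day 0, so equal FPKM stand for different shares of the total. The median SD over the Mrp genes within a group was 0.07 to 0.15 on the log2 scale in the 6 RANKL groups, against 0.19 in KO and 0.21 in WT at day 0. The smallest steps between low values put the WT day 3 sample of mouse 531 at a lower depth than its group (step ratios of 0.688 and 0.685, against 0.940 to 1.16 in all other pairs). Summed levels of 10 osteoclast markers ran from 41520 to 50104 FPKM at day 4, against 71.9 to 181 FPKM at day 0. Summed levels of 6 neutrophil genes ran from 61.3 to 207 FPKM on the RANKL days, against 5581 to 15290 FPKM at day 0, and those of 5 B cell genes from 0.162 to 0.575 FPKM, against 22.4 to 105 FPKM. Neutrophil and B cell RNA was thus highest at day 0, and its part in the changes from day 0 was not tested. In bulk samples such as these, fewer cells of a type and less RNA per cell cannot be told apart.

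Mrp genes were expressed at moderate to high levels in every sample, and none was at 0 in any of them. Their mean over the 24 samples ran from 10.8 FPKM for Mrps33 to 360.4 FPKM for Mrpl52, with a median of 59.1 FPKM, against a median of 12.7 FPKM over all genes tested. The highest means after Mrpl52 were those of Mrpl20 at 242 FPKM, Mrpl42 at 235 FPKM, Mrps21 at 204 FPKM and Mrpl12 at 179 FPKM. The order differed between days. At day 0 Mrps21 averaged 265 FPKM in KO and 315 in WT and Mrpl33 259 in KO and 295 in WT, both above Mrpl52 at 149.9 in KO and 168 in WT. At day 4 Mrpl52 averaged 399 FPKM in KO and 364 in WT. Mrpl12 encodes the homologue of the bacterial stalk protein L7/L12, which in human cells also binds the mitochondrial RNA polymerase. The lowest means after Mrps33 were those of Mrpl17 at 11.4 FPKM, Mrpl19 at 11.9 FPKM, Mrps25 at 13.1 FPKM and Mrpl35 at 14.1 FPKM. Proteins of one particle were thus encoded by transcripts whose levels per length differed by more than an order of magnitude. Mrpl52, Mrpl20, Mrpl42, Mrps21 and Mrpl12 have transcripts of 418, 764, 666, 488 and 1316 bases. Mrps33, Mrpl17, Mrpl19, Mrps25 and Mrpl35 have 1107, 7300, 5000, 6073 and 3721 bases. The part of transcript length in this order of levels was not tested. Together the 70 genes summed to 4355 to 6567 FPKM per sample, which was 0.848% to 1.22% of the summed FPKM on the RANKL days, against 0.714% to 0.910% at day 0.

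Individual Mrp genes moved in opposite directions between day 0 and the RANKL days, and the same few genes led in both genotypes. Mrpl52, Mrps35 and Mrps6 were more than 2-fold higher at day 4 than at day 0 in both genotypes, while Mrpl33, Mrps15 and Mrps18c were lower at day 4 in both. Most of each change was present by day 2. Genes named by size in each day comparison were picked among called genes without overlap between its days. Lack of overlap is thus not further support for their changes. Mrpl52 encodes a large subunit protein with no bacterial counterpart. In KO cells it measured 161, 165 and 124 FPKM at day 0, 418, 485 and 463 at day 2, 438, 544 and 428 at day 3, and 365, 412 and 419.6 at day 4. In WT cells it measured 159.9, 136 and 209 FPKM at day 0, 421, 467 and 494 at day 2, 397, 447 and 406 at day 3, and 347, 322 and 424 at day 4. Every RANKL sample lay above every day 0 sample. Its log2 difference at day 4 against day 0 was 1.41 in KO (SE 0.177, adjusted p = 4.05e-07) and 1.12 in WT (SE 0.177, adjusted p = 7.89e-06).

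Mrps35, a small subunit gene of the mitochondrial particle without a bacterial counterpart, measured 34.3, 42.2 and 27.1 FPKM at day 0, 84.0, 87.7 and 82.2 at day 2, 100.4, 115 and 95.5 at day 3, and 96.7, 104 and 101 at day 4 in KO cells. In WT cells it measured 34.6, 31.0 and 42.3 FPKM at day 0, 83.5, 79.6 and 92.1 at day 2, 100.2, 95.3 and 89.1 at day 3, and 96.2, 83.9 and 95.5 at day 4. All 18 RANKL samples were well above the 6 day 0 samples. The log2 difference was 1.53 in KO (SE 0.136, adjusted p = 2.92e-09) and 1.34 in WT (SE 0.136, adjusted p = 2.24e-08). Mrps6, the homologue of bacterial S6, measured 168, 119 and 135 FPKM at day 4, against 83.3, 43.9 and 42.9 FPKM at day 0, in KO cells. The WT values were 159.8, 114 and 141 FPKM at day 4, against 89.2, 42.1 and 49.4 FPKM at day 0. Mouse 481 of the KO group and mouse 480 of the WT group were higher than their group mates at both days. The log2 difference was 1.35 in KO (SE 0.242, adjusted p = 3.93e-05) and 1.25 in WT (SE 0.242, adjusted p = 9.06e-05). Mrpl50 and Mrps22, both without a bacterial counterpart, and Mrpl36, the homologue of bacterial L36, completed the largest rises at day 4. Mrpl50 rose by 0.97 in KO and by 0.72 in WT, Mrps22 by 0.86 in KO and by 0.81 in WT, and Mrpl36 by 0.82 in KO and by 0.75 in WT, all on the log2 scale and with no overlap between the days.

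**Figure D1:**
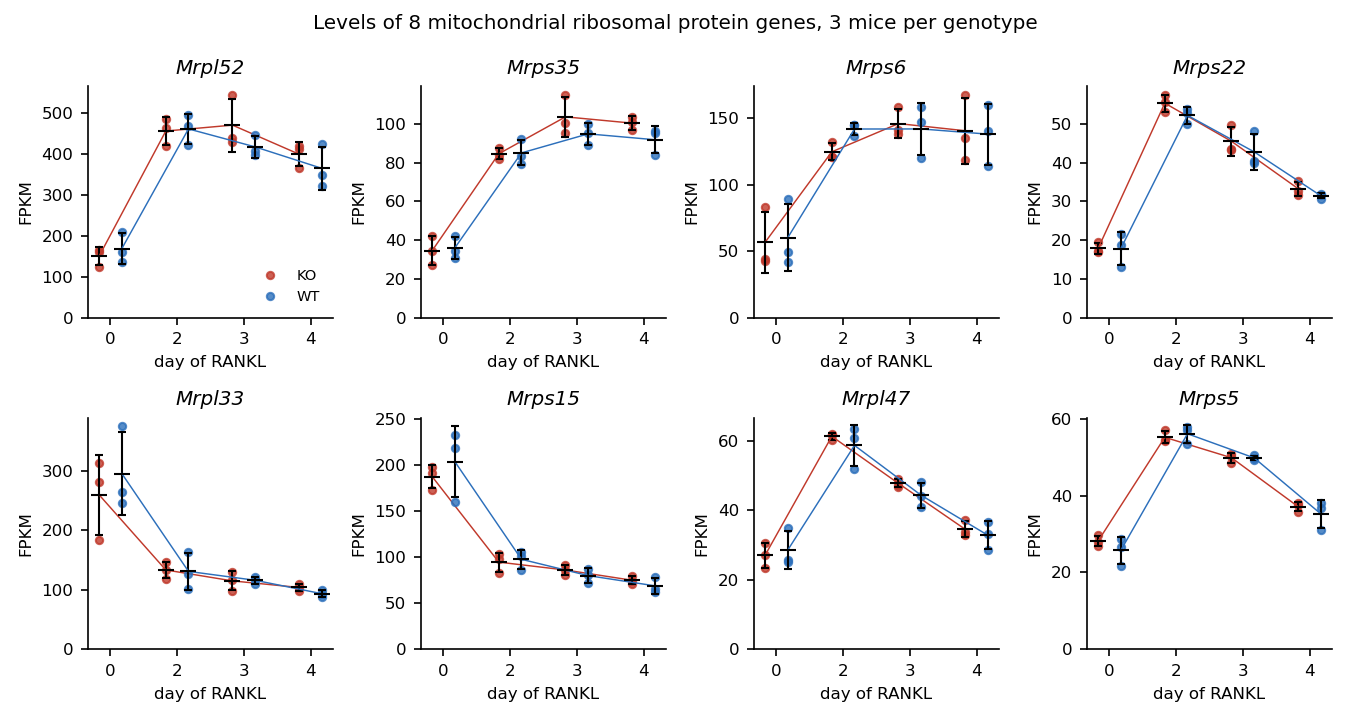
FPKM (vertical axes, starting at 0) of 8 Mrp genes at days 0, 2, 3 and 4 of RANKL, with KO to the left of WT; points are mice, black bars the mean and SD of 3 mice, and lines join the means. Mrpl52, Mrps35 and Mrps6 stayed high after day 2, Mrps22, Mrpl47 and Mrps5 were highest at day 2 and lower at day 4, and Mrpl33 and Mrps15 were lower on every RANKL day than at day 0.

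Of the 5 largest falls at day 4, 4 were of genes with bacterial homologues, from both subunits. Mrpl33, the homologue of bacterial L33, measured 281, 314 and 184 FPKM at day 0, 133, 147 and 119 at day 2, 117, 129.6 and 97.6 at day 3, and 109, 103 and 98.3 at day 4 in KO cells. The WT values were 264, 246 and 375 FPKM at day 0, 127, 101 and 164 at day 2, 120.5, 117 and 109.7 at day 3, and 92.8, 87.4 and 99.1 at day 4. The days before and after RANKL did not overlap, and the 6 day 4 samples spanned a far narrower range than the 6 day 0 samples. Mrpl33 fell by 1.28 in KO (SE 0.214, adjusted p = 1.71e-05) and by 1.63 in WT (SE 0.214, adjusted p = 7.39e-07) on the log2 scale at day 4 against day 0. Mrps15, the homologue of bacterial S15, measured 192, 198 and 173 FPKM at day 0, 83.0, 103 and 97.8 at day 2, 86.0, 91.2 and 81.0 at day 3, and 74.3, 70.9 and 79.5 at day 4 in KO cells. It measured 219, 160.0 and 233 FPKM at day 0, 86.2, 101 and 106 at day 2, 80.6, 87.4 and 71.9 at day 3, and 65.8, 62.5 and 78.3 at day 4 in WT cells. No RANKL sample came near the lowest day 0 sample. It fell by 1.31 in KO (SE 0.158, adjusted p = 2.41e-07) and by 1.54 in WT (SE 0.158, adjusted p = 2.40e-08). Mrps18c, which encodes a mitochondrial homologue of bacterial S18, measured 110.4, 107 and 84.9 FPKM at day 4, against 224, 220.2 and 139.8 FPKM at day 0, in KO cells. It measured 102, 85.9 and 106 FPKM at day 4, against 219, 201 and 279 FPKM at day 0, in WT cells. The days did not overlap, with KO mouse 532 low at both, and Mrps18c fell by 0.92 in KO and by 1.23 in WT. Mrpl28, the homologue of bacterial L28, fell by 0.91 in KO and by 1.12 in WT. Mrpl54, a large subunit gene with no bacterial counterpart, fell by 0.90 in KO and by 1.07 in WT.

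**Figure D2:**
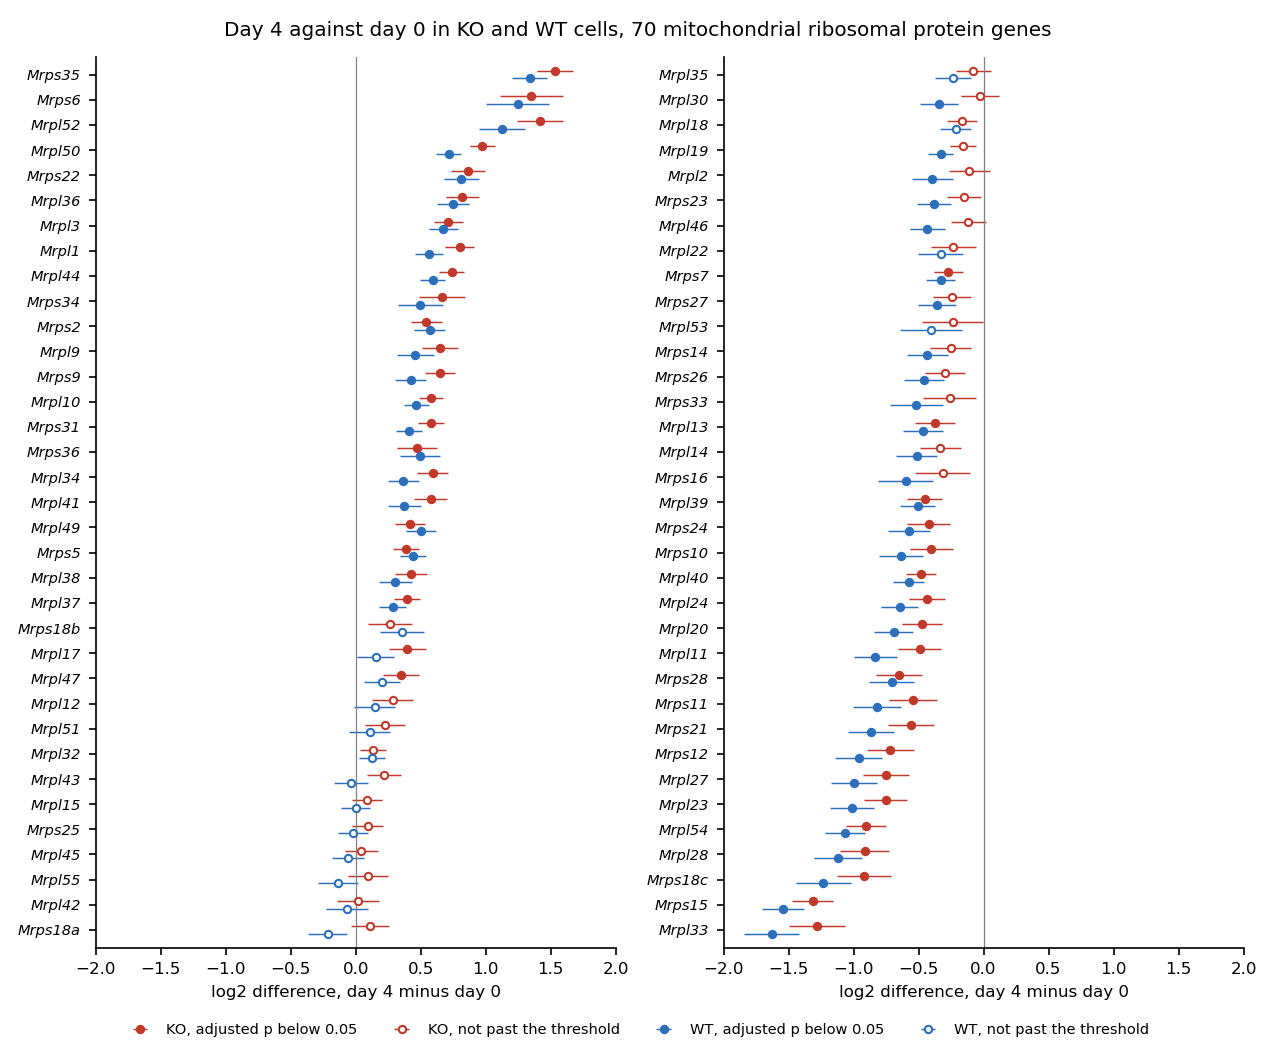
Log2 difference of each of the 70 Mrp genes at day 4 minus day 0 (horizontal axes, log2(FPKM + 1) scale), with KO (red) above WT (blue) in each row; bars are 1 standard error, and filled points passed an adjusted p of 0.05. Rows run from Mrps35, at 1.53 in KO and 1.34 in WT, down to Mrpl33, at -1.28 in KO and -1.63 in WT.

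The largest changes on the earlier RANKL days came from nearly the same genes. At day 2 against day 0, Mrpl52 rose by 1.61 in KO and 1.47 in WT, Mrps22 by 1.58 and 1.53, Mrps35 by 1.29 in KO and Mrps6 by 1.30 in WT. In the other direction Mrps15 fell by 0.98 in KO and by 1.04 in WT, Mrpl33 fell by 0.93 in KO and by 1.17 in WT, Mrpl28 fell by 0.65 in KO, and Mrpl27, the homologue of bacterial L27, fell by 0.90 in WT. The fall of Mrpl28 in KO did not pass the threshold with samples scaled to equal sums. At day 3 against day 0, Mrpl52 rose by 1.64 in KO and 1.32 in WT, Mrps35 by 1.58 and 1.38, and Mrps6 by 1.42 and 1.29. Mrpl33 fell by 1.14 in KO and by 1.32 in WT and Mrps15 fell by 1.12 in KO and by 1.33 in WT, with Mrpl54 next in KO, where it fell by 0.60, and Mrps18c in WT, where it fell by 1.03.

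Promoter sequences of genes that led each direction are shown because these genes moved apart while encoding parts of 1 particle. Nuclear genes for mitochondrial proteins are known to be bound by NRF1, by GABPA and other ETS factors and by YY1, and MYC binds the E-box. The promoter windows are from RefSeq (GRCm38), run from 250 bases before to 50 bases after the annotated start, and were available for 62 of the 70 genes. Of each, the 150 bases just before the start are printed 5′ to 3′ on the gene's strand, with motif matches in capitals. Mrpl52 (chr14:54426759-54426908, plus strand) and Mrps22 (chr9:98601680-98601829, minus strand) rose, and each holds 1 ETS match. Mrpl33 (chr5:31613801-31613950, plus strand) and Mrps15 (chr4:126046778-126046927, plus strand) fell; the stretch of Mrpl33 holds 1 NRF1 match and that of Mrps15 holds no match.
Mrpl52: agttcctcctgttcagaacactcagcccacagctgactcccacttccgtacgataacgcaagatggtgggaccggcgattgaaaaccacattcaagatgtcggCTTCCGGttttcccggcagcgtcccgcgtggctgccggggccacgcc
Mrps22: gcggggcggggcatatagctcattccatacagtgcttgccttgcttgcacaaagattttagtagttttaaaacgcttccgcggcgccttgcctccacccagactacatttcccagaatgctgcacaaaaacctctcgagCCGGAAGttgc
Mrpl33: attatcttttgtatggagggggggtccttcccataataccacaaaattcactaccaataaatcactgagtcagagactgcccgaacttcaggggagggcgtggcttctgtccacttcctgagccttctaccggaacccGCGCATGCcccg
Mrps15: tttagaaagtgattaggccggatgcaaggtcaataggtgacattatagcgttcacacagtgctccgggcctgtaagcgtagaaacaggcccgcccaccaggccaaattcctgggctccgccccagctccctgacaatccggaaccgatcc
In GRCm38 the gene bodies of Mrpl52 (chr14:54426909-54429750), Mrps22 (chr9:98588730-98601679), Mrpl33 (chr5:31613951-31622644) and Mrps15 (chr4:126046928-126055536) are annotated as protein-coding, as are Mrps35 (chr6:147042728-147070906), for which no window was available, and Mrps6 (chr16:92058336-92112227). The motifs were searched on both strands without mismatches as CCGGAAG for ETS factors including GABPA, GCATGCGC for NRF1, AAGATGGC for YY1 and CACGTG for the E-box, and no printed stretch holds more than 1 match, so none overlap. In the whole 300-base windows, the ETS motif was in 35.5% of the 62 Mrp genes, against 9.93% of all 27025 genes with a window and 12.9% of the protein-coding genes. YY1 letters were in 19.4% of Mrp genes, against 3.19% of all genes, and NRF1 letters in 12.9%, against 3.05%. The E-box was in 8.06% of Mrp genes, against 8.09% of all genes. Among genes that rose in both genotypes at day 4, 4 of 19 with a window held the ETS motif and 2 of 19 the NRF1 motif. Among genes that fell in both, 5 of 17 held the ETS motif and 2 of 17 the NRF1 motif. A match describes letters, not binding, and the counts in the rising and the falling genes differed by 1 gene or by none. Outside the printed stretch, the window of Mrpl33 also holds an ETS match. The windows of Mrps6, which rose, and Mrps15, which fell, hold no match to any of the motifs.

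Over the whole set, a smaller share of Mrp genes than of all genes tested passed the threshold against day 0, and the balance of directions moved over the days. At day 2, 30 of 70 rose and 10 fell in KO cells against day 0, beside 37.1% of all genes tested rising and 36.5% falling; in WT cells 26 rose and 15 fell, beside 38.5% and 37.5% of all genes. At day 3, 34 rose and 11 fell in KO (38.9% and 39.5% of all genes), and 28 rose and 17 fell in WT (40.4% and 41.6%). At day 4, 24 rose and 20 fell in KO (38.6% and 40.8% of all genes), and 22 rose and 31 fell in WT (39.2% and 42.7%). The median log2 difference of the 70 genes at days 2, 3 and 4 was 0.24, 0.26 and -0.0047 in KO and 0.16, 0.09 and -0.21 in WT. The median of all genes tested lay between -0.07 and 0.0041 in these comparisons. The share of falling Mrp genes was lowest at day 2 in each genotype and highest at day 4.

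These splits depend on how samples are scaled, because day 0 samples had the larger sums. With every sample scaled to an equal sum, the median of all genes at day 4 against day 0 moved to 0.16 in KO and 0.29 in WT, and 34 Mrp genes rose and 11 fell in KO, and 34 rose and 13 fell in WT. At day 2 that scaling gave 50 rising and 2 falling in KO and 50 rising and 4 falling in WT, and at day 3 it gave 44 rising and 4 falling in KO and 44 rising and 8 falling in WT. The median of all genes moved to 0.35 in KO and 0.45 in WT at day 2, and to 0.24 and 0.39 at day 3. Shares of all genes called with equal sums are not given here, so these counts and those with equal sums below lack a background. Relative to the median of all genes, the Mrp median at day 2 was higher by 0.24 in KO and 0.16 in WT as deposited, and by 0.30 in KO and 0.22 in WT with equal sums. At day 4 it was higher by 0.05 in KO and lower by 0.14 in WT as deposited, and higher by 0.07 and lower by 0.09 with equal sums. All named rises and falls against day 0 kept their direction under both scalings.

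The 2 genotypes changed largely the same Mrp genes. At day 4 against day 0, 22 genes rose in both, which was 91.7% of those rising in KO and 100% of those rising in WT. In the other direction 20 fell in both, which was 100% of those falling in KO and 64.5% of those falling in WT. No gene rose in one genotype and fell in the other. These shares and the correlation below are not given here for all genes, so they do not set the Mrp genes apart. Of all genes, 0.0298% were called between KO and WT at day 4. Across the 70 genes the log2 differences of KO and WT, which come from different mice, had a Pearson correlation of 0.988 and a Spearman correlation of 0.984; genes are not replicates, and transcript length is shared by both axes.

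**Figure D3:**
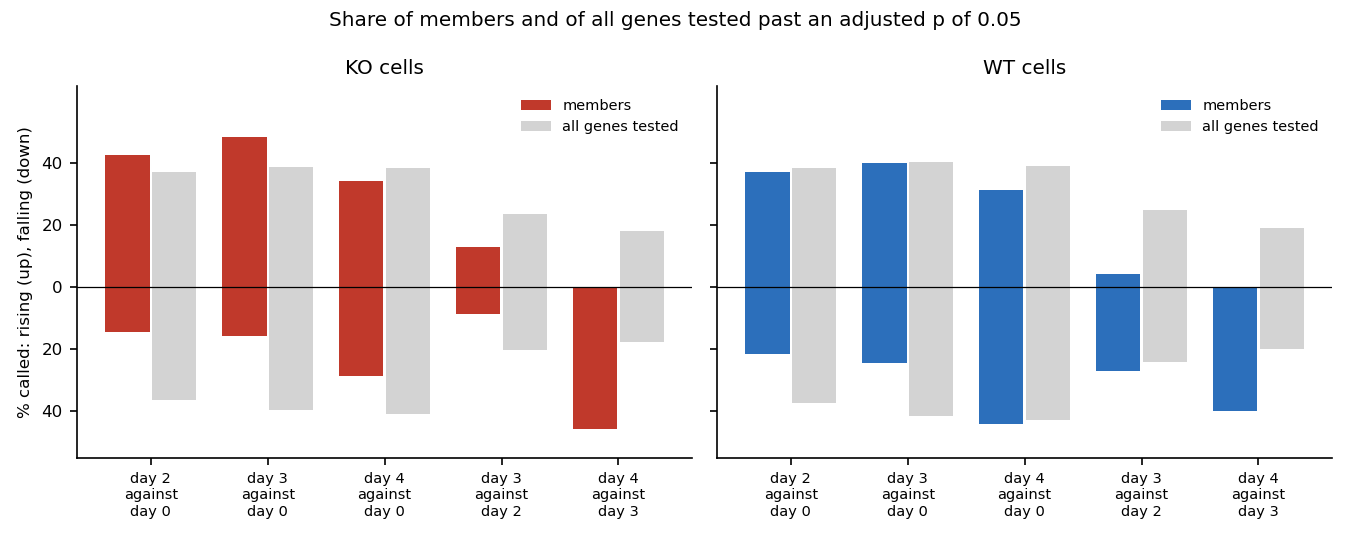
Percent of genes past an adjusted p of 0.05 (vertical axes; rising above 0, falling below) for the 70 Mrp genes in colour and all 10081 genes tested in grey, with KO cells left and WT cells right. At day 4 against day 3 no Mrp gene rose in either genotype, while 45.7% fell in KO and 40.0% fell in WT, against 17.6% and 19.8% of all genes.

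Genes of bacterial descent and genes without a bacterial counterpart are counted apart here, beside 38.6% of all genes rising and 40.8% falling in KO at day 4 against day 0 and 39.2% and 42.7% in WT. Of the 42 genes with a bacterial homologue, 12 rose and 17 fell in KO at day 4 against day 0, and 10 rose and 23 fell in WT. Of the 25 without one, 11 rose and 3 fell in KO, and 11 rose and 8 fell in WT. With equal sums 16 of the 42 rose and 9 fell in KO and 16 rose and 12 fell in WT, and 15 of the 25 rose and 2 fell in KO and 16 rose and 1 fell in WT. Mrps18a, Mrps18b and Mrps36 were placed in neither group. The lowest medians were those of small subunit genes with a bacterial homologue, of which 4 of 15 rose and 9 fell in KO and 4 rose and 11 fell in WT, with medians of -0.40 in KO and -0.60 in WT. With equal sums these medians were -0.16 in KO and -0.18 in WT, and 4 rose and 5 fell in each genotype. In the large subunit, 15 of 44 rose and 11 fell in KO, and 13 rose and 16 fell in WT. In the small subunit 8 of 25 rose and 9 fell in KO, and 8 rose and 15 fell in WT. With equal sums 23 of 44 rose and 6 fell in KO and 23 rose and 8 fell in WT in the large subunit, and 10 of 25 rose and 5 fell in each genotype in the small subunit. The shares of all genes given above are for levels as deposited, not for equal sums. These are counts of a descriptive grouping, and the difference between the groups was not tested.

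Transcript length moved with the change from day 0. Mrp transcripts ran from 418 to 7300 bases (1 principal transcript per gene). For the 10 genes under 700 bases, the median log2 difference at day 4 against day 0 was -0.44 in KO and -0.69 in WT, beside -0.64 and -0.84 for all genes of that length. For the 14 genes of 3000 bases and over it was 0.18 in KO and 0.12 in WT, beside 0.34 and 0.38 for all genes of that length. In each length range between these, the Mrp median lay above that of all genes in both genotypes. From shorter to longer, these ranges held 15, 19 and 12 Mrp genes. Their medians were -0.03, -0.12 and 0.23 in KO, beside -0.62, -0.56 and -0.25 for all genes. In WT they were -0.33, -0.38 and 0.18, beside -0.83, -0.71 and -0.31. Mrpl52 and Mrpl33, with 418 and 478 bases, moved in opposite directions, and Mrps35 has 4162 bases. The part of transcript length in the changes from day 0 was not tested.

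The calls of the step between day 3 and day 4 went in a single direction. No Mrp gene rose at day 4 against day 3 in either genotype, while 32 of 70 fell in KO and 28 of 70 fell in WT (KO 18.2% of all genes rising and 17.6% falling, WT 19.0% and 19.8%). Among the positive differences, 0 in KO and 1 in WT had an unadjusted p below 0.05 by limma. The log2 difference was negative for 64 genes in KO, with a median of -0.23, and for 60 genes in WT, with a median of -0.21. All 3 samples of each day stood apart, lower at day 4, for 42 genes in KO and 35 in WT, against 23.1% and 25.6% of all genes, and for no gene with day 4 higher, against 25.0% and 22.6% of all genes. Of the genes that fell, 25 were the same in both genotypes, 78.1% of those in KO and 89.3% of those in WT. With equal sums 50 fell in KO and 45 in WT, and with days weighted equally 12 fell in KO and 13 in WT, and none rose in either case. All 14 Mrp genes of 3000 bases and over had negative differences in each genotype, as had 9 of 10 in KO and 8 of 10 in WT under 700 bases. Both subunits took part, with 12 of 25 small subunit genes and 19 of 44 large subunit genes falling in KO, and 11 and 17 in WT. The number of calls rested on single mice: 17 fell in KO without mouse 481 and 9 without mouse 528, and 15 fell in WT without mouse 480 and 8 without mouse 529. Mrps9, at 0.18 in WT (adjusted p = 0.0516), was the only Mrp gene to pass as a rise in any alternative, in WT with a filter at 5 FPKM, with median scaling, with the block by mouse and without mouse 529. Cell cycle genes fell in the same step, 18 of 20 in KO and 19 of 20 in WT, and all 8 macrophage markers rose in both, with summed levels of 3269 to 4049 FPKM at day 4, against 2549 to 3002 FPKM at day 3, in KO and of 3398 to 3751 FPKM, against 2628 to 2925 FPKM, in WT. Their part in the Mrp result was not tested.

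Mrps5, the homologue of bacterial S5, measured 35.8, 37.7 and 38.1 FPKM at day 4, against 51.0, 50.3 and 48.5 FPKM at day 3 in KO cells. In WT cells it measured 36.7, 31.1 and 38.1 FPKM at day 4, against 50.5, 49.8 and 49.3 FPKM at day 3. The days did not overlap in either genotype, and Mrps5 fell by 0.42 in KO (SE 0.0614, adjusted p = 4.61e-05) and by 0.49 in WT (SE 0.0614, adjusted p = 6.00e-06). Mrpl15, the homologue of bacterial L15, measured 20.1, 20.7 and 21.4 FPKM at day 4, against 29.3, 29.5 and 26.7 FPKM at day 3 in KO cells. The WT values were 20.1, 17.6 and 21.1 FPKM at day 4, against 28.3, 27.0 and 25.6 FPKM at day 3. Mrpl15 fell by 0.44 in both genotypes (adjusted p = 7.98e-05 in KO and 5.51e-05 in WT), which left a difference from day 0 of 0.09 in KO and 0.0014 in WT (adjusted p = 0.482 and 0.991). Mrps10, the homologue of bacterial S10, fell by 0.48 in KO and by 0.42 in WT, Mrpl47 by 0.46 in KO and by 0.43 in WT, and Mrps22 by 0.44 in KO and by 0.43 in WT.

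Some genes rose early and fell late. Of the 30 genes that rose at day 2 in KO, 16 fell again between day 3 and day 4, as did 14 of the 26 in WT, beside 23.2% in KO and 29.1% in WT of all genes that rose at day 2. In all, 32 of 70 Mrp genes fell in KO and 28 in WT in that step. At day 4, 20 of the 30 in KO and 17 of the 26 in WT still passed as higher than at day 0. Of all genes that rose at day 2, 80.1% in KO and 79.3% in WT did so. The 12 that rose at day 2 and fell between day 3 and day 4 in both genotypes were Mrpl1, Mrpl12, Mrpl15, Mrpl19, Mrpl37, Mrpl38, Mrpl45, Mrpl47, Mrpl51, Mrps5, Mrps18b and Mrps22. Mrps22, in which human variants cause mitochondrial disease, measured 16.9, 19.5 and 17.2 FPKM at day 0, 55.7, 57.4 and 53.0 at day 2, 43.6, 49.8 and 43.2 at day 3, and 32.8, 35.3 and 31.8 at day 4 in KO cells. It measured 13.2, 21.6 and 18.6 FPKM at day 0, 52.8, 49.9 and 54.0 at day 2, 48.1, 40.3 and 40.0 at day 3, and 31.9, 30.7 and 31.7 at day 4 in WT cells. No day overlapped its neighbour in either genotype, and day 4 remained above day 0. At day 2 against day 0 it rose by 1.58 in KO and 1.53 in WT. The day with the highest mean was day 2 for 26 of 70 genes in KO and 29 in WT, and day 4 for 5 in each, against 20.6% and 20.4% of all genes at day 2 and 24.9% and 22.8% at day 4.

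Between day 2 and day 3 fewer Mrp genes changed. In KO, 9 Mrp genes rose and 6 fell at day 3 against day 2 (23.6% and 20.3% of all genes), and in WT 3 rose and 19 fell (24.9% and 24.2%). With equal sums 6 rose and 23 fell in KO and 3 rose and 32 fell in WT, and with days weighted equally 5 rose and 1 fell in KO and 0 rose and 5 fell in WT. All 3 that rose in WT also rose in KO, and all 6 that fell in KO also fell in WT. Mrps9, the homologue of bacterial S9, measured 56.7, 62.6 and 57.1 FPKM at day 3, against 43.2, 43.9 and 40.5 FPKM at day 2 in KO cells. In WT cells it measured 51.9, 55.1 and 48.2 FPKM at day 3, against 43.5, 40.6 and 46.3 FPKM at day 2. The days stood apart in both genotypes, with rises of 0.46 in KO (adjusted p = 4.32e-05) and 0.25 in WT (adjusted p = 0.00901). Mrps36, the gene of the 2-oxoglutarate dehydrogenase complex, rose by 0.44 in KO and 0.27 in WT, Mrpl34 by 0.33 in KO and 0.21 in WT, and Mrpl41 by 0.34 in KO, with 0.16 in WT (adjusted p = 0.112). Mrpl47 fell by 0.35 in KO and by 0.40 in WT, Mrps18b fell by 0.30 in KO and by 0.35 in WT, and Mrpl15 fell by 0.25 in KO and by 0.32 in WT. Mrps22 fell by 0.28 in KO. The WT rises of Mrps9, Mrps36 and Mrpl34 did not pass with days weighted equally (adjusted p = 0.0547, 0.0556 and 0.104 by limma) or without WT mouse 480, nor did those of Mrps9 and Mrpl34 without WT mouse 529. That of Mrpl34 did not pass with only the groups compared (adjusted p = 0.058). The KO falls of Mrps18b and Mrps22 did not pass with days weighted equally (adjusted p = 0.0622 and 0.0797 by limma), without KO mouse 481 or without KO mouse 532. The WT count rested in part on the mouse with the low-depth day 3 sample: without mouse 531, 7 genes rose and 4 fell. Without KO mouse 481, which enters through the shared spread, 3 rose and 8 fell in WT. In KO, 5 rose and 2 fell without mouse 481, 4 rose and 4 fell without mouse 528, and 5 rose and 1 fell without mouse 532.

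**Figure D4:**
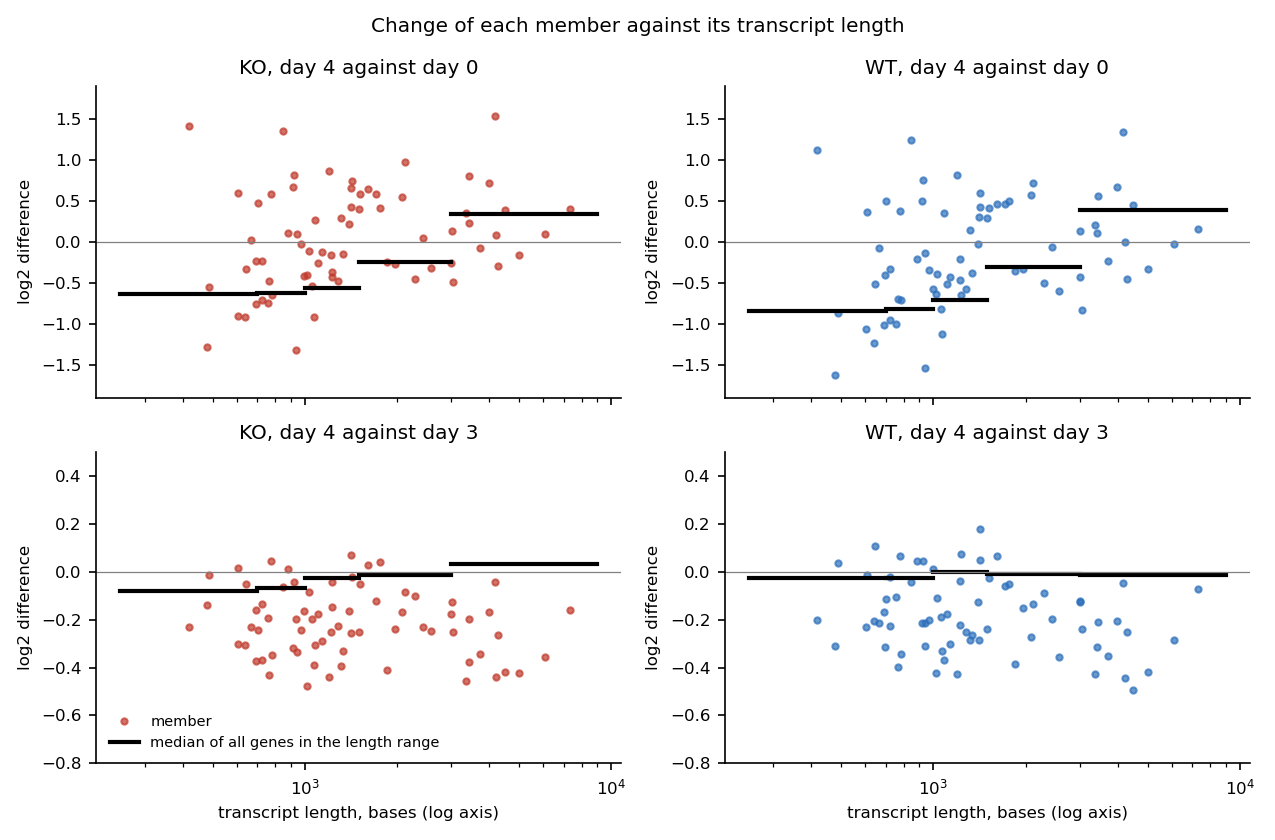
Log2 difference of each Mrp gene (points) against transcript length in bases (horizontal log axes), with KO left and WT right, for day 4 against day 0 (top) and day 4 against day 3 (bottom); black lines are medians of all genes tested in 5 length ranges. Medians of short genes were lower than those of long ones at day 4 against day 0, while at day 4 against day 3 most Mrp genes of every length lay below 0, with medians of -0.23 in KO and -0.21 in WT.

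No Mrp gene passed the threshold between KO and WT on any day. By limma, 0 of 70 were called at days 0, 2, 3 and 4, where 0.0992%, 0.0298%, 0.0198% and 0.0298% of all genes were called, and 0, 0, 3 and 0 Mrp genes had an unadjusted p below 0.05. The 3 were Mrpl44, Mrpl10 and Mrps9 at day 3. Mrpl44, a large subunit gene with an RNase III-like fold, measured 58.2, 60.4 and 57.9 FPKM in KO cells at day 3, against 53.7, 53.1 and 49.9 FPKM in WT cells. Mrpl10, the homologue of the bacterial stalk-base protein L10, measured 54.6, 60.0 and 56.3 FPKM in KO cells, against 52.9, 52.8 and 47.7 FPKM in WT cells. Neither overlapped, with log2 differences of 0.17 for Mrpl44 (unadjusted p = 0.00674) and 0.15 for Mrpl10 (unadjusted p = 0.0100), and an adjusted p of 0.934 for both. At the other days the smallest unadjusted p-values belonged to Mrpl11 and Mrpl27 at day 0, Mrpl54 and Mrps33 at day 2, and Mrpl50 and Mrpl34 at day 4. They ran from 0.0599 to 0.218, with log2 differences of -0.28, -0.29, -0.16, 0.18, 0.12 and 0.14 in that order, and an adjusted p of 1 for each.

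The differences were small, but many pointed the same way within a day. At day 3 the KO mean was higher for 67 of 70 genes, with a median of 0.09, while 49.7% of all genes had a positive difference. Only Mrpl33, Mrpl49 and Mrps2 had negative values there. At day 4 it was higher for 63 of 70 genes, with a median of 0.07 (57.8% of all genes), at day 2 for 29 of 70, with a median of -0.0068, and at day 0 for 10 of 70, with a median of -0.12 (47.8% of all genes). Samples without overlap were found for 9 genes with KO higher at day 3 and 4 at day 4, against 3.96% and 2.34% of all genes. The KO and WT samples of the set overlapped when averaged: the mean log2 level over the 70 genes was 5.93, 6.05 and 5.84 in KO samples at day 3, against 5.91, 5.86 and 5.78 in WT samples.

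With equal sums the KO mean was higher for 41 genes at day 0, 44 at day 2, 57 at day 3 and 49 at day 4. That scaling moved the median of all genes at day 0 to 0.10, against -0.0071 as deposited. Relative to the median of all genes, the Mrp median at days 0, 2, 3 and 4 was -0.08, 0.0011, 0.09 and 0.05 with equal sums, against -0.11, -0.0017, 0.09 and 0.05 as deposited. Single mice also moved these medians. At day 2 it was 0.06 without WT mouse 531 and -0.06 without WT mouse 529. At day 0 it was 0.0021 without WT mouse 531 and -0.02 without KO mouse 532, at day 3 it was 0.05 without KO mouse 528 and 0.13 without KO mouse 532, and at day 4 it was -0.0082 without WT mouse 529 and 0.11 without WT mouse 531. Without KO mouse 532, 23 of 70 genes had an unadjusted p below 0.05 at day 3 and none was called. Length moved with this contrast as well. At day 3 the KO mean was higher for 80.4% of all genes under 700 bases and for 29.9% of those of 3000 bases and over, and for 9 of 10 and 14 of 14 Mrp genes. Its part in the genotype differences was not tested.

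**Figure D5:**
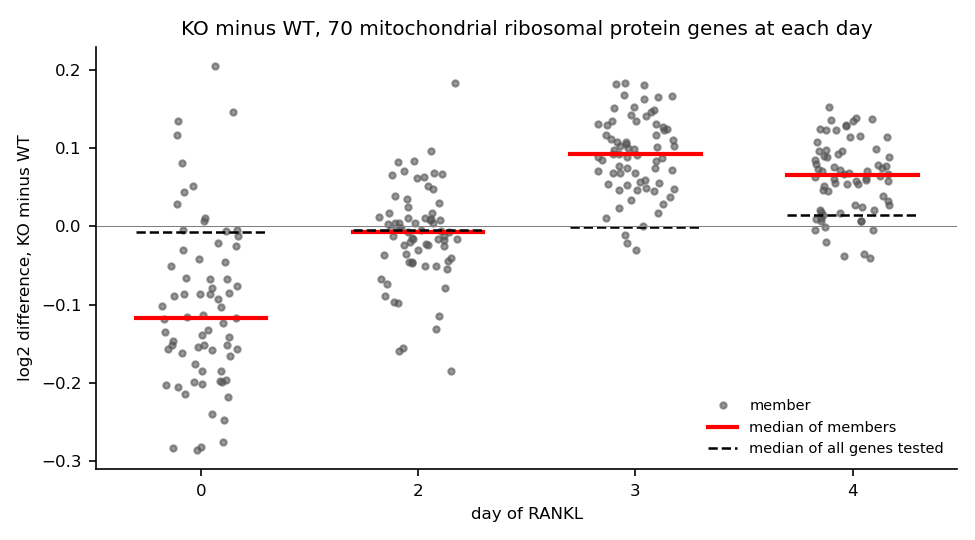
Log2 difference of KO minus WT (vertical axis) for the 70 Mrp genes at days 0, 2, 3 and 4 of RANKL; points are genes, spread sideways at random, red lines their medians and dashed lines the medians of all genes tested. The Mrp medians were -0.12, -0.0068, 0.09 and 0.07, and no gene passed an adjusted p of 0.05 on any day.

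No Mrp gene passed the test of a genotype difference in its change from day 0. By limma, the interaction of genotype and day gave 0 called Mrp genes at days 2, 3 and 4 (0.0397%, 0.0694% and 0.0496% of all genes), with 0, 1 and 0 at an unadjusted p below 0.05. The difference of KO minus WT changes was positive for 58, 66 and 65 of 70 genes, with medians of 0.10, 0.21 and 0.17, beside 50.6%, 51.2% and 54.2% of all genes. With equal sums it was positive for 32, 41 and 34 genes, and the medians of all genes were -0.10, -0.15 and -0.13. Relative to the median of all genes, the Mrp medians were 0.09, 0.20 and 0.15 as deposited and 0.07, 0.17 and 0.12 with equal sums. Mrps9 at day 3 had the smallest unadjusted p, 0.0493, with a difference of 0.34 (SE 0.162, adjusted p = 0.906). The next smallest p at day 3 was that of Mrpl30, with a difference of 0.36. The 2 smallest within day 2 were those of Mrps33 and Mrpl46, with differences of 0.42 and 0.25. Within day 4 they were those of Mrpl50 and Mrpl46, with 0.26 and 0.31.

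Other genes of mitochondrial translation gave a wider view of the same days. The counts at day 4 against day 0 here and in the next paragraph stand beside those of all genes. Of all genes, 38.6% rose and 40.8% fell in KO, and 39.2% rose and 42.7% fell in WT. Of 7 mitochondrial ribosomal proteins with names outside the Mrp series, 6 were in the table. Ptcd3, a small subunit protein that binds RNA, rose at day 4 against day 0 by 1.39 in KO and by 1.48 in WT. Gadd45gip1 and Ict1, both of the large subunit, fell by 0.89 and 0.67 in KO and by 1.21 and 0.99 in WT. Of 15 translation factors tested, 9 rose and 2 fell in each genotype, with Lrpprc, Taco1 and Gfm1 first by p. Gfm1, the mitochondrial elongation factor G1, averaged 79.1 ± 1.93 FPKM at day 4, against 32.8 ± 1.15 FPKM at day 0, in KO cells, and 74.7 ± 7.02 FPKM at day 4, against 31.3 ± 4.38 FPKM at day 0, in WT cells (SD, n = 3). Of 17 mitochondrial aminoacyl-tRNA synthetases, 12 rose and 1 fell in KO and 13 rose and 1 fell in WT, with Iars2, Lars2 and Wars2 first by p. Of 14 genes of mitochondrial transcription and RNA processing, 12 rose and 1 fell in each genotype, with Supv3l1, Rg9mtd1 and Fastkd1 first by p.

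Of 19 mitochondrial ribosome assembly genes tested, 8 rose and 7 fell in KO and 8 rose and 8 fell in WT, near the shares of all genes. Mettl15, a methyltransferase of the small subunit ribosomal RNA, rose by 2.01 in KO and by 1.98 in WT, Noa1 rose by 0.94 and 0.95, and Rbfa, the homologue of a bacterial ribosome-binding factor, fell by 1.29 in KO and by 1.45 in WT. Of 13 biogenesis regulators, 7 rose and 4 fell in each genotype. Ppargc1b, the PGC-1β coactivator, rose by 3.07 in KO and by 2.99 in WT, while Atf4 and Max fell. Of 75 nuclear genes for respiratory chain subunits, 48 rose and 2 fell in KO and 30 rose and 13 fell in WT, and with equal sums 56 rose and 2 fell in KO and 55 rose and 2 fell in WT. Uqcrc2, Sdha and Ndufa10 had the smallest adjusted p. Of 77 cytosolic ribosomal protein genes, 73 fell in KO and 75 fell in WT, among them Rpl41, Rps28 and Rps6, and none rose; with equal sums 70 fell in each genotype. Of 20 cell cycle genes, 20 fell in KO and 19 in WT, among them Pcna, Ccnb2 and Mcm3, and with equal sums 19 and 17.

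At day 4 against day 3, 18.2% of all genes rose and 17.6% fell in KO, and 19.0% rose and 19.8% fell in WT. In that step 7 of 15 translation factors fell in KO and 8 in WT, and none rose. Of the synthetases, 9 of 17 fell in KO and 11 in WT, and none rose in KO and 1 in WT. Of the cytosolic ribosomal protein genes 66 of 77 fell in KO and 46 in WT, and with equal sums 75 and 71. Of the 75 respiratory chain genes, 3 rose and 7 fell in KO and 6 rose and 3 fell in WT, and with equal sums 2 rose and 19 fell in KO and 4 rose and 13 fell in WT. These counts were not tested against each other, and the lists were chosen with results of these data known.

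Some values rest on sequence shared with other loci. Of 70 Mrp transcripts, 29 matched a transcript of another gene over at least 250 bases at 95% identity or more, or over at least 150 identical bases, and 15 of these matched a processed pseudogene. Among the genes named above, Mrps5, Mrps10, Mrps18b, Mrps21, Mrps25, Mrps33, Mrps36, Mrpl27, Mrpl41, Mrpl42 and Mrpl51 match a processed pseudogene, Mrps6 shares bases with Slc5a3, Mrpl47 with Actl6a and Ndufb5, Mrpl19 with Gcfc2, and Mrpl33 and Mrpl10 with noncoding transcripts. The sources used here do not give how such reads were assigned, so the levels of these genes are uncertain to that extent.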

How the data were processed

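RNA-seq was analysed for 24 samples, 3 mice in each of 8 groups of genotype and day. The authors deposited 1 table of FPKM, made with HISAT2 2.0.5, Cufflinks 2.2.1 and Cuffdiff on mm10, per the submitters' processing notes. The submitters name it a table of significant genes, so its 10721 genes are a selected set, and adjusted p-values and shares of all genes are over that set. Neither the rule of that selection nor strandedness nor the handling of multi-mapping reads is stated in the notes. Every value column was used. FPKM are not counts, so log2(FPKM + 1) was tested with limma 3.58.1 in R 4.3.3, with 1 mean per group, a mean-variance trend and samples weighted by day (weights 0.355 for day 0, 1.20, 1.70 and 1.38 for days 2, 3 and 4; 16 residual degrees of freedom). Kept were the 10081 genes averaging 1 FPKM or more in some group, and two-sided p-values were adjusted by Benjamini-Hochberg within each of 17 comparisons. On simulated data for WT day 4 against day 0, over 10081 genes, 136 of 200 changed genes were recovered with 5 false calls. Of these 136, 37 were among changes of 0.5 and 99 among changes of 1. The 200 changed genes were far fewer than the 8258 genes called in that comparison of the deposited data. Recovery of changes of other sizes, or in other comparisons, was not tested.

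The 70 members, all gene lists and the weighting by day were chosen with earlier results of these data known. The text names the 5 largest rises and 5 largest falls at day 4 against day 0 among called genes whose samples do not overlap, 3 of each in other day comparisons, the 2 smallest p-values in genotype comparisons, the 5 highest and 5 lowest levels, and 3 genes of each other list. Mrpl50 in WT, the 12 genes up at day 2 and down later, Mrpl33, Mrpl49 and Mrps2 at day 3, and genes named for shared sequence are named outside that rule. Pairing by mouse number comes from the labels, since each animal gave 4 days. Between days of an animal, deviations from group means correlated across genes with a median r of 0.261 in KO (17 of 18 pairs above 0.1) and 0.136 in WT (10 of 18). Wells were pooled, so p-values measure the spread between samples of different mice within groups, pooled over all groups. The main fit treats the 4 samples of a mouse as independent. Variation between mice, cultures and libraries cannot be told apart. Transcript lengths are from GENCODE vM21, shared sequence was found with BLAST+ 2.17.0, and promoters are from RefSeq. Alternatives were a pseudocount of 0.1, no filter, a filter at 5 FPKM, equal weights, median scaling, only the groups compared, a block by mouse and each mouse left out. Scaling to equal sums was added after seeing the data.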

Additional observations from a re-analysis of the deposited data

Results flagged for a closer look

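In a pair of genes every KO mouse moved one way and every WT mouse the other. They were found by a search of all Mrp genes in every comparison with day 0 and every later step. The share of all genes with this pattern is not given here, so it does not set these genes apart. Mrps33, with the lowest mean level of the set, changed by 0.08 in KO mice and by -0.34 in WT mice at day 2 against day 0 on the log2 scale, and the test of that difference gave an unadjusted p of 0.166 (limma, adjusted p = 0.9999). Mrps18c changed by 0.04 in KO mice and by -0.18 in WT mice at day 3 against day 2, and that difference was not tested. Its changes in single mice were 0.092, 0.0023 and 0.011 in KO and -0.152, -0.017 and -0.383 in WT. The split of Mrps18c thus rests in part on values near 0. Mrps33 shares sequence with a processed pseudogene, and the Mrps18c values include the WT day 3 sample of lower depth.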

How the results depend on the processing

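Of 238 recomputed counts of called genes 220 stayed within 1.5 times of the reported count, and of 238 recomputed medians 231 moved by less than the spread between mice. These totals include the genotype comparisons, where no Mrp gene was called, so those counts had little room to move. The filters, equal weights, only the groups compared and the block by mouse leave each difference unchanged, so those medians could not move. Of 1064 recomputed differences of named genes none changed sign and 16 no longer passed the threshold. Genes of the day comparisons were picked as the largest called changes in these same data, and the settings that leave differences unchanged could not change a sign. Genes of the genotype comparisons did not pass in the first place, so they could not stop passing. These totals are thus not independent support for the results. Equal sums moved the Mrp median against day 0 to 0.64, 0.54 and 0.24 in KO and to 0.67, 0.56 and 0.21 in WT at days 2, 3 and 4, which the larger day 0 sums give by construction, and to -0.13 for KO day 3 against day 2, where the KO sums were larger at day 3 than at day 2. With equal sums the calls at day 3 against day 2 were 29 in KO (6 rising) and 35 in WT (3 rising), and at day 4 against day 3 they were 50 in KO and 45 in WT. With equal weights these counts were 6 in KO and 5 in WT, and 12 in KO and 13 in WT. With only the groups compared, WT day 3 against day 2 gave 9. Leaving out each mouse gave 6 to 17 calls in KO and 11 to 21 in WT at day 3 against day 2, and 9 to 34 in KO and 9 to 36 in WT at day 4 against day 3; the lowest WT count at day 4 against day 3, with 8 falling and 1 rising, was without mouse 529, and 15 fell without mouse 480. The cause was not tested. A block by mouse, which uses the pairing of samples by animal, gave 40 falling in KO and 37 falling with 1 rising in WT at day 4 against day 3, and moved no count by more than 1.5 times. Depth is unknown, so no counting error is attached to any level.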
